A study of Homo sapiens with 4 samples.

Results

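RNA of 43 genes that act in G2 and mitosis was compared between GMI-treated and control A549 cells, an established human lung adenocarcinoma line. The treated cells had been kept for 24 h with 0.6 µM GMI, a fungal immunomodulatory protein from Ganoderma microsporum, and the controls carry the same time in their labels. There were 2 GMI libraries and 2 control libraries, all from this 1 line kept in medium with serum. What the control cells received in place of GMI is not stated in the labels, nor is it stated that each library had a culture of its own, so p-values measure only the spread between these libraries, which may be technical. The members are all rows of the deposited tables whose gene symbol is on the list, which gave 44 of 57905 rows for the 43 symbols. The additional row (ENSG00000268942) is named CKS1B in the files, but GENCODE 29 lists that identifier as the processed pseudogene CKS1BP3. Its values are uncertain, since a pseudogene copy can take fragments from CKS1B.

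Entry into mitosis depends on the kinase CDK1 bound to A- and B-type cyclins and switched on by CDC25 phosphatases. Further kinases of the Polo, Aurora and BUB families then guide spindle assembly and the attachment of chromosomes at kinetochores. The anaphase-promoting complex (APC/C), a ubiquitin ligase with the activator CDC20, destroys cyclin B and securin once the spindle checkpoint is satisfied. Most of these genes are transcribed in a burst in G2 by B-MYB and FOXM1 with the MuvB complex. In resting cells the same complex, in its DREAM form, represses them through a promoter element called CHR, close to CCAAT boxes bound by NF-Y. Their RNA is therefore widely read as a sign of how many cells of a culture are cycling. Proliferation itself was not measured here, and in bulk RNA a smaller number of cells in G2 and mitosis cannot be told apart from less of these RNAs per cell.

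All values are FPKM, fragments scaled to gene length and to library size, so levels of different genes can be set side by side. The library denominators, recovered from the steps between low FPKM values, were 21860000 and 20880000 fragments in the GMI libraries and 20560000 and 24090000 in the controls. At these depths, 1 FPKM of a gene of 2 kb stood for 41.1 to 48.2 fragments. Of the A549 markers, KRT8 held 1914 and 1981 FPKM in the GMI libraries and 1928 and 1841 FPKM in the controls. ALDH1A1 held 1067 and 1091 FPKM in the GMI libraries and 1848 and 1842 FPKM in the controls, while EPCAM, at 0.29 to 0.35 FPKM in the 4 libraries, was near absent. Of the 8 A549 markers, KRT7, KRT18 and ALDH1A1 fell and AKR1C1 rose (limma, highest adjusted p = 0.0339). This was the test of the 11598 genes with at least 1 FPKM in at least 2 libraries, where 6.12% were called lower and 9.3% higher. Without a filter on FPKM, 1 of 26758 genes was called. The part of these markers in the differences of the mitosis genes was not tested. The 15 listed genes of leukocytes, fibroblasts, endothelium and alveolar type 2 cells that were matched summed to 2.97 and 2.30 FPKM in the GMI libraries and to 2.31 and 2.50 FPKM in the controls. PTPRC and CD3E, which mark leukocytes and T cells, were listed at 0 in all 4 libraries.

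Most mitosis genes had little RNA in these cultures, and most had less in the GMI libraries. Of the 44 rows, 26 had a mean under 1 FPKM over the 4 libraries, as had 15400 of the 26758 genes above 0 FPKM in any library. The median level of the members was 0.565 FPKM in GMI cells and 0.905 FPKM in control cells. For those 26758 genes it was 0.495 and 0.485 FPKM, so low levels were not particular to the members. MKI67, the gene of the proliferation marker Ki-67, held 0.04 and 0.02 FPKM in the GMI libraries, against 0.19 and 0.23 FPKM in the controls. The RNA of this marker was thus low in both groups. The levels of the members were uneven, since 7 rows had a mean of 5 FPKM or more. In descending order these were CDC25B, BUB3, CKS1B, CKS2, CKAP5, CCNB1 and ECT2. CDC25B, a phosphatase that activates CDK1, stood first with 86.3 and 82.9 FPKM in GMI cells and 74.0 and 71.8 FPKM in control cells. The ranges over the 4 libraries of neighbours in this order did not overlap. CKS1B and CKS2 came closest in the controls, with 17.7 and 16.9 FPKM for CKS1B and 16.5 and 15.6 FPKM for CKS2.

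**Figure D1:**
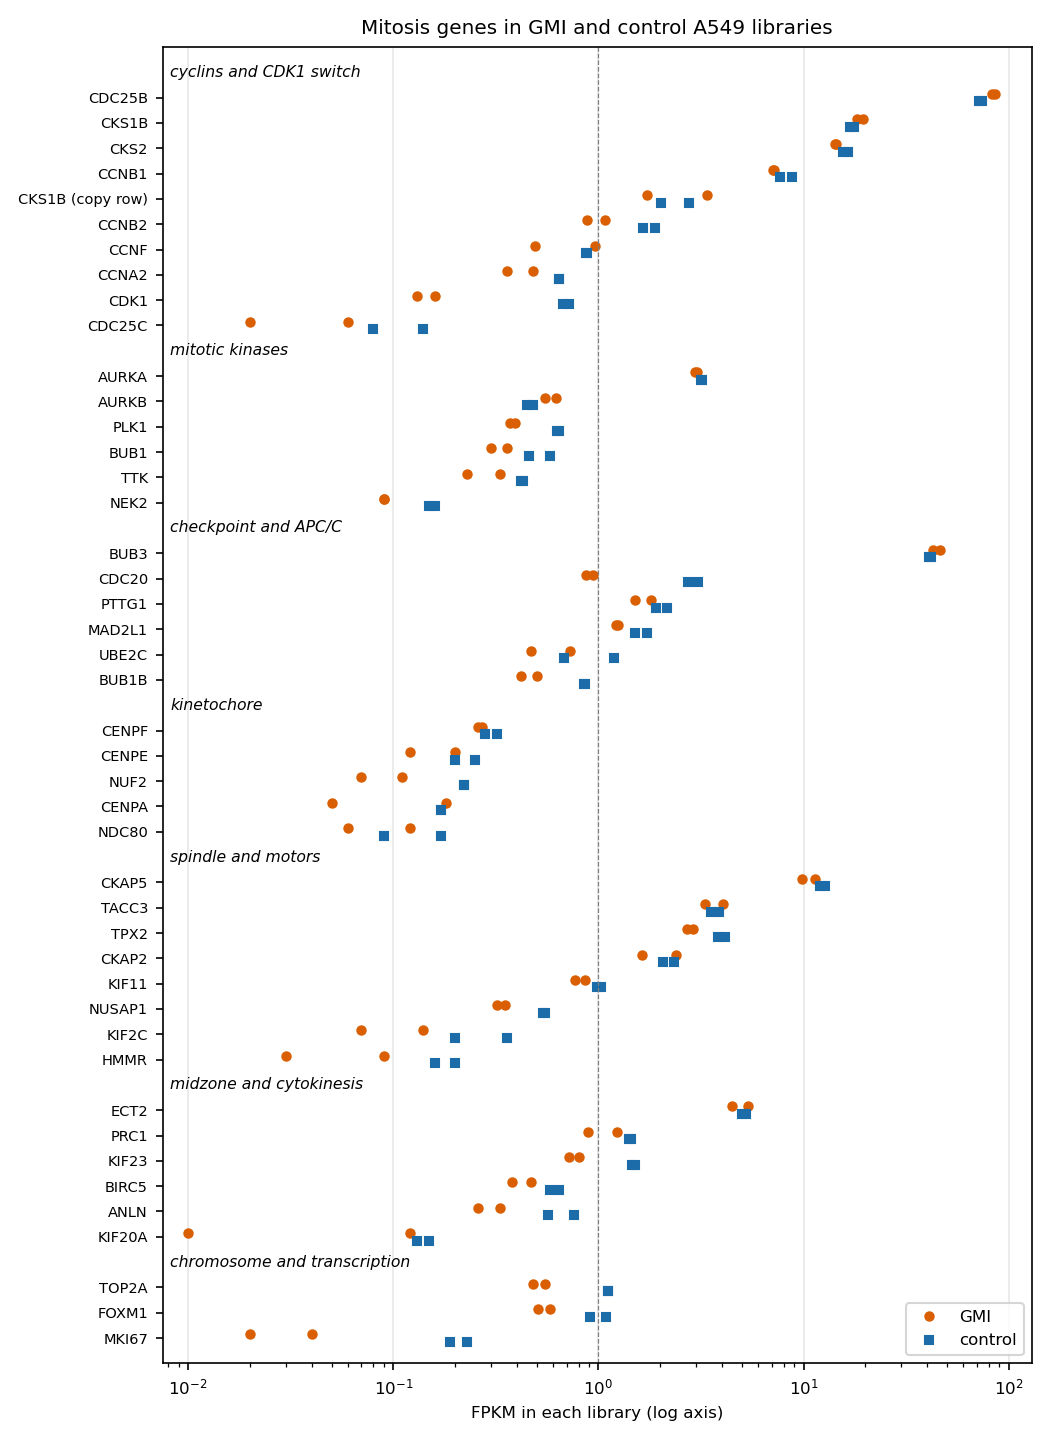
FPKM of each of the 44 gene rows in each library, on a log axis, with the 2 GMI libraries as circles and the 2 control libraries as squares, grouped by role and ordered by mean level within a role. The dashed line marks 1 FPKM, and the row marked copy row is the one listed by GENCODE as CKS1BP3. Most circles lie left of the squares at low levels, as for MKI67 (0.04 and 0.02 against 0.19 and 0.23 FPKM), while CDC25B and BUB3 at the right have the circles to the right of the squares.

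In 31 of the 44 rows both GMI libraries lay below both controls, in 4 both lay above, and in 9 they overlapped. Over all 26758 genes above 0 FPKM in any library, 20.5% had both GMI libraries below both controls and 20% had both above. The share with both GMI libraries below did not change with the level in the lists of other mitosis and G1/S genes described below. Among the members it did. Of the 32 rows with a mean under 2 FPKM, 26 had both GMI libraries below, 5 overlapped and 1 lay above, where 20.6% of the 9296 genes between 0.1 and 2 FPKM had both below, or 26.8% of the 4441 protein-coding ones. The median ratio of the GMI mean to the control mean was 0.607 for these 32 rows and 0.980 for those 9296 genes. Of the 12 rows at 2 FPKM or more, 5 had both GMI libraries below, 4 overlapped and 3 lay above, where 31.2% of the 9244 genes at that level had both below and 31.2% both above. Their median ratio was 0.946, against 0.997 for those 9244 genes. Summed over the 32 low rows, the level was 14.10 and 15.02 FPKM in the GMI libraries, against 23.54 and 25.10 FPKM in the controls. Summed over the 12 higher rows, it was 197 and 201 FPKM in the GMI libraries and 189 and 189 FPKM in the controls, so the total over all 44 rows, at 211 and 216 FPKM in GMI cells and 213 and 214 FPKM in control cells, followed the few abundant genes. A GMI mean of at most 0.5 times the control mean was seen in 10 of the 32 low rows and in 10.4% of the genes between 0.1 and 2 FPKM.

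**Figure D2:**
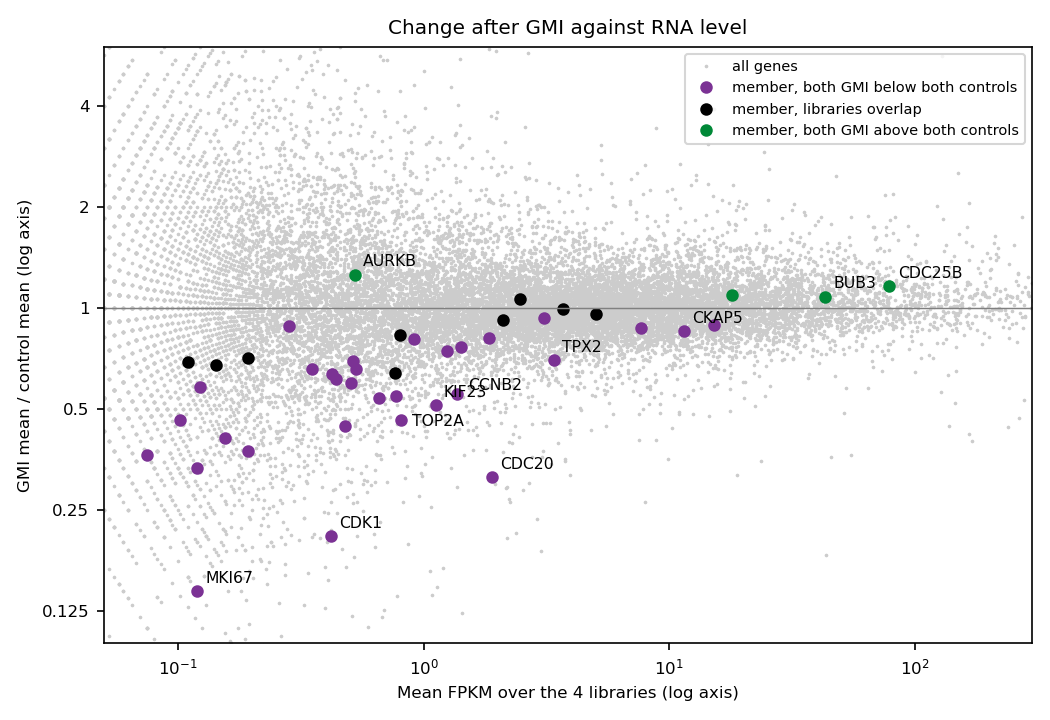
Ratio of the mean FPKM of the 2 GMI libraries to that of the 2 control libraries against the mean FPKM over the 4 libraries, both on log axes, with all genes in grey and the 44 member rows coloured by the order of the libraries. Genes with a ratio of 0 or beyond the axes are not drawn. Members under 2 FPKM spread down to 0.14 for MKI67, whereas those at 2 FPKM or more lie between 0.70 for TPX2 and 1.16 for CDC25B.

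Without a filter on FPKM, no member passed an adjusted p of 0.05 in limma, a test fitted across all genes (0 of 44 rows, and 1 of 26758 genes, a gene lower in GMI cells, which is 0.00374%). At an unadjusted p under 0.05 there were 16 member rows, 15 of them lower in GMI cells, where 8.09% of all genes were lower at that level. The smallest adjusted p without a filter was 0.0614, for CDC20. The median log2 fold change of the 44 rows, GMI over control on log2(FPKM + 1), was -0.17, and that of all 26758 genes was 0.00. This scale compresses changes in genes near or below 1 FPKM, and 26 of the 44 rows had a mean under 1 FPKM. On approximate fragment numbers with voom, which weights genes by their precision, the same unfiltered comparison called 10 of the 44 rows. It put CDC20, TOP2A, KIF23, MKI67, CDK1, CCNB2, TPX2, FOXM1 and ANLN lower in GMI cells, where 3.23% of 25486 genes were called lower, and CDC25B higher, where 4.23% were called higher.

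When only genes with at least 1 FPKM in at least 2 libraries were tested, 19 of the 44 rows remained and 5 of them fell, while 0 rose. Of all 11598 genes tested so, 6.12% were called lower and 9.3% higher. CDC20, KIF23 and TOP2A reached 1 FPKM in the controls only, so the filter itself admitted them through the group where they were high, and the count of 5 is not weighed against the others. With a filter on the mean of the 4 libraries, which does not look at the groups, 34 rows had at least 0.25 FPKM. CDC20, KIF23, TPX2, TOP2A and CDK1 fell in that test, where 3.17% of 15395 genes were called lower and 5.03% higher. Only the controls of CDK1 exceeded 0.25 FPKM, so CDK1 entered that test through the group where it was high. The count of calls there is not weighed either. CCNB2 missed the threshold there (limma adjusted p = 0.0526). With a mean of at least 0.5 FPKM 5 of 28 rows fell, with CCNB2 in and CDK1 below the filter, where 4.53% of 13317 genes were called lower and 7.05% higher. With a mean of at least 1 FPKM 4 of 18 rows fell, with TOP2A also below the filter, where 6.29% of 11358 genes were called lower and 9.31% higher. Of those that fell, CDC20, KIF23 and CCNB2 had GMI means under 1 FPKM and reached that mean through the controls. Without GMI replicate 1 or GMI replicate 2 CDC20 alone was called in the filtered test (1 row each), and without control replicate 1 or control replicate 2 no member was (0 rows each).

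CDC20, the activator that directs the APC/C to cyclin B and securin, had the lowest adjusted p of the members. It held 0.94 and 0.87 FPKM in the GMI libraries, against 2.72 and 3.05 FPKM in the controls, and the groups lay far apart. These values stand for about 41.9 and 37.0 fragments in GMI cells and 114 and 150 in control cells. With the filter on the mean at 0.25 FPKM, the log2 fold change was -1.03 (SE 0.09, limma adjusted p = 0.00709), and the GMI mean was 31.4% of the control mean. Without a filter the adjusted p was 0.0614. Around the test with at least 1 FPKM in at least 2 libraries, which CDC20 entered through the controls, it ran from 0.000136 to 0.0622, and it was over the threshold when either control was left out.

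KIF23, a kinesin that bundles microtubules of the central spindle for cytokinesis, held 0.72 and 0.80 FPKM in GMI cells and 1.5 and 1.46 FPKM in control cells. It fell by 0.50 on the log2 scale with the filter on the mean at 0.25 FPKM (SE 0.09, limma adjusted p = 0.0388). TOP2A, the topoisomerase that untangles sister chromatids, held 0.55 and 0.48 FPKM in GMI cells and 1.11 in each control, a log2 fold change of -0.48 in the same test (SE 0.10, adjusted p = 0.0467, limma). In both genes every GMI library lay below every control by more than the spread within a group. CCNB2, cyclin B2, held 0.88 and 1.08 FPKM in GMI cells and 1.65 and 1.89 FPKM in control cells, and fell by 0.48 on the log2 scale with at least 1 FPKM in at least 2 libraries (SE 0.11, adjusted p = 0.0321, limma). TPX2, which activates Aurora A and nucleates spindle microtubules, held 2.70 and 2.88 FPKM in GMI cells and 3.84 and 4.16 FPKM in control cells, a log2 fold change of -0.40 in the same test as CCNB2 (SE 0.09, adjusted p = 0.0261, limma). In the test used for KIF23 and TOP2A, CCNB2 missed the threshold and TPX2 passed it (limma adjusted p = 0.0526 and 0.0459). Without any filter all 4 missed the threshold (limma adjusted p = 0.129 for KIF23, 0.128 for TOP2A, 0.171 for CCNB2 and 0.129 for TPX2). Of the 5 genes called with at least 1 FPKM in at least 2 libraries, TPX2 kept the largest share of its control level, at 69.8%. It was the only one of them with a GMI mean above 1 FPKM. Over the alternatives tried, the adjusted p ran from 0.000615 to 0.170 for KIF23, from 0.000736 to 0.197 for TOP2A, from 0.0111 to 0.230 for CCNB2 and from 0.0101 to 0.218 for TPX2, with the highest values when a control was left out.

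The promoters of the genes that fell are shown because mitosis genes share short elements just before their starts. Promoters came from RefSeq (GRCh38.p14), where 36 of the 43 members had at least 1 listed start. AURKA, BIRC5, BUB3, FOXM1, TPX2, TTK and UBE2C had none. Each promoter of 300 bases ran from 250 before to 50 after a start, and both strands were searched for the CHR motif, written as TTTGAA or TTCGAA, and for CCAAT. A CHR match was found in 26 of the 36 genes (72.2%), against 19.5% of all 27305 genes in that table and 17.5% of its 15843 protein-coding genes. A CCAAT match was found in 28 members (77.8%), against 39.7% of all genes and 42.1% of the protein-coding ones. At least 2 CCAAT matches were found in 20 members (55.6%, against 12.9% of all genes), and both motifs stood in the promoter of 22 members (61.1%, against 7.85%). A gene with several listed starts counted once, if any start had the match.

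**Figure D3:**
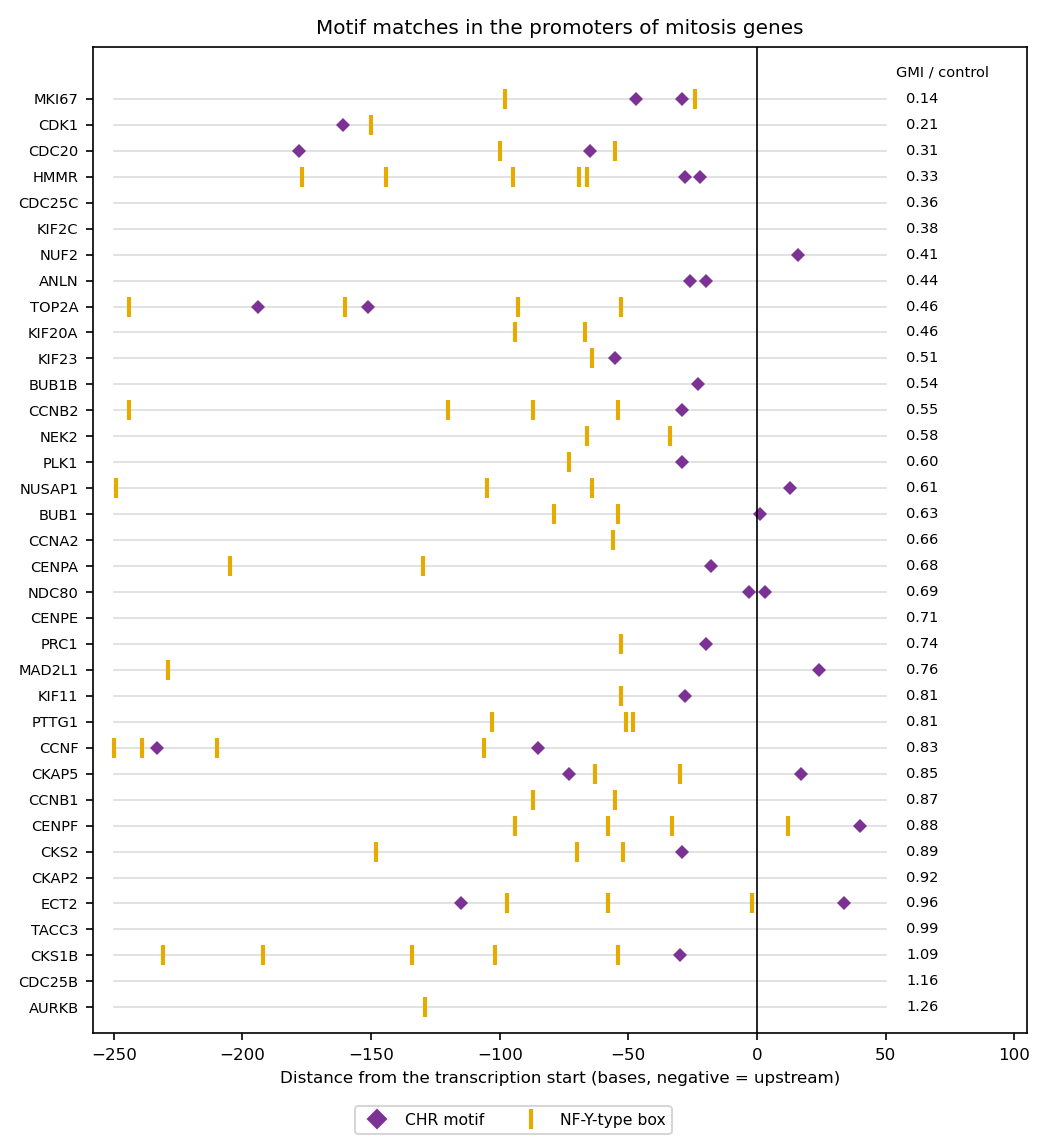
Positions of CHR matches (diamonds) and CCAAT matches, the NF-Y-type boxes (bars), in the promoters of the 36 members in the RefSeq table, by distance in bases from the most upstream listed start, ordered by the ratio of GMI to control mean FPKM printed at the right. CHR matches gather within 100 bases of the start in most rows, from MKI67 at a ratio of 0.14 to CKS1B at 1.09, and CDC25C, KIF2C, CENPE, CKAP2, TACC3 and CDC25B hold no match at this start.

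The 200 bases before the start are printed for the genes called with at least 1 FPKM in at least 2 libraries, except TPX2, which had no listed start. They are also printed for CDK1 and MKI67 with the lowest ratios, and, in contrast, for CKS1B and AURKB, whose GMI libraries lay above the controls. ANLN and CDC25B, called with voom only, have a listed start but are not printed. Each is written 5′ to 3′ on the strand of its gene, with the CHR and CCAAT matches in capitals on either strand, so that TTCAAA and ATTGG are matches on the other strand. The windows are chr1:43358781-43358980 (plus strand) for CDC20, chr15:59104946-59105145 (plus strand) for CCNB2, chr15:69414149-69414348 (plus strand) for KIF23 and chr17:40417897-40418096 (minus strand) for TOP2A. They are chr10:60778131-60778330 (plus strand) for CDK1, chr10:128126424-128126623 (minus strand) for MKI67, chr1:154974481-154974680 (plus strand) for CKS1B and chr17:8210250-8210449 (minus strand) for AURKB. For CDK1 and AURKB the more upstream of 2 listed starts was used.
CDC20: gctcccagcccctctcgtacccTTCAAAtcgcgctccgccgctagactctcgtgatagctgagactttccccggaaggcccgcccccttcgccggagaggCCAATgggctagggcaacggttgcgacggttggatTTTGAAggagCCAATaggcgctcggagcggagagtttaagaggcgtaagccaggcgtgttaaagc
CCNB2: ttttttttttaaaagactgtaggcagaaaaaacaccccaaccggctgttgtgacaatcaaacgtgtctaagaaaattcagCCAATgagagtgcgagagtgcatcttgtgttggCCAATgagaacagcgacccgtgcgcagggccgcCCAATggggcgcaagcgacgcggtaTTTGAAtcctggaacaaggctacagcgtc
KIF23: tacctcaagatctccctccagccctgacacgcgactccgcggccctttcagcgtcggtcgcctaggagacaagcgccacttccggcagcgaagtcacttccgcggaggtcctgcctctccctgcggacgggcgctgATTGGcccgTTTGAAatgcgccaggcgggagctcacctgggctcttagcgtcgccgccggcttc
TOP2A: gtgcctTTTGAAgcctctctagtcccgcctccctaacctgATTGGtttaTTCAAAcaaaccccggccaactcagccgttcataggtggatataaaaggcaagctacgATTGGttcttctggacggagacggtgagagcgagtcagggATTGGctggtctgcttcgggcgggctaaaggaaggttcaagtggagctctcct
CDK1: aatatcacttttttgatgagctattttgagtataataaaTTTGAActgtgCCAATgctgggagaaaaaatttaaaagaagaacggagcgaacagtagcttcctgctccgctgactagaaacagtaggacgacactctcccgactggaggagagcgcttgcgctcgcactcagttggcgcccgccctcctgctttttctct
MKI67: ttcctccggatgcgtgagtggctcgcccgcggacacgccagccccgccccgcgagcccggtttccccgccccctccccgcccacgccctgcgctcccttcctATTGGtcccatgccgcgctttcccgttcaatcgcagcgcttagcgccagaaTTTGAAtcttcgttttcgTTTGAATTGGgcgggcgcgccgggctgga
CKS1B: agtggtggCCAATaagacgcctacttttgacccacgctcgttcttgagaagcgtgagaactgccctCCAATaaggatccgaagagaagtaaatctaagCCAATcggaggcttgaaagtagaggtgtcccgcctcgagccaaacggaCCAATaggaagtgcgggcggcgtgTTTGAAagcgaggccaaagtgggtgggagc
AURKB: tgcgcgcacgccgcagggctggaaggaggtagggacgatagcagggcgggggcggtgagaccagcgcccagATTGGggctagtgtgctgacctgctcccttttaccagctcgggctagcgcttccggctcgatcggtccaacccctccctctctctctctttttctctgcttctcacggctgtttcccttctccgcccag

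CDC20 carried 2 CHR and 2 CCAAT matches in its window, CCNB2 1 and 3, TOP2A 2 and 3, and KIF23 1 CHR beside 1 CCAAT. CDK1 carried 1 CHR and 1 CCAAT match in its window, 161 and 150 bases before the start used. Counted from its other listed start, CDK1 had CHR matches at 69, 13 and -9 bases before the start and CCAAT matches at 78 and 46. In MKI67, with 2 CHR and 2 CCAAT matches, the CHR match nearest the start overlaps a CCAAT match, which was the only such overlap in the members. CKS1B, whose level was not lower after GMI, carried 1 CHR and 4 CCAAT matches, and AURKB carried 1 CCAAT match and 0 CHR matches. Over the whole promoters, a CHR match was found in 20 of 26 members whose GMI libraries lay below the controls and in 6 of the other 10. These are letter matches only, with no measure of binding, and the groups of members were formed from the values themselves, so no test was made.

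Among cyclins and the CDK1 switch, 6 of 10 rows had both GMI libraries below both controls. CDK1, the kinase that drives mitotic entry, held 0.16 and 0.13 FPKM in GMI cells and 0.72 and 0.67 FPKM in control cells. The GMI mean was 20.9% of the control mean, and the values stand for about 13.7 and 10.7 fragments in GMI cells and 58.2 and 63.4 in control cells. CDK1 lay below the filter on single libraries and fell in the test at a mean of 0.25 FPKM (log2 fold change -0.57, limma adjusted p = 0.0385). Only its controls exceeded 0.25 FPKM, so CDK1 entered that test through the group where it was high. CCNB1, cyclin B1 and the main partner of CDK1, was an exception in level: it held 7.15 and 7.13 FPKM in GMI cells and 7.68 and 8.75 FPKM in control cells (log2 fold change -0.18, adjusted p = 0.194, limma). CCNA2, cyclin A2, held 0.36 and 0.48 FPKM in GMI cells and 0.64 in each control, so the groups did not overlap, but it was not called. CCNF, a cyclin that serves a ubiquitin ligase, had 0.96 and 0.49 FPKM in GMI cells around 0.87 and 0.88 FPKM in control cells.

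CDC25B and the CKS subunits were at higher levels than CDC25C. CDC25B had both GMI libraries above both controls, with a log2 fold change of 0.21 that missed the threshold in the filtered test (SE 0.06, limma adjusted p = 0.0523) and passed it with voom. CDC25C, the related mitotic phosphatase, was near the limit of detection, with about 1.46 and 4.18 fragments in the GMI libraries and 9.61 and 6.43 in the controls. CKS1B and CKS2, small adaptors of cyclin-dependent kinases, differed in direction. CKS1B held 18.3 and 19.5 FPKM in GMI cells and 17.7 and 16.9 FPKM in control cells, and CKS2 held 14.4 and 14.2 FPKM in GMI cells and 16.5 and 15.6 FPKM in control cells. Neither was called (limma adjusted p = 0.276 and 0.162). The row listed as CKS1BP3 overlapped, with 1.72 and 3.39 FPKM in GMI cells and 2.03 and 2.77 FPKM in control cells.

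Of the 6 mitotic kinases, 5 had both GMI libraries below both controls and AURKB had both above, and none was called by limma on log2 FPKM at any of these filters (0 of 6). PLK1, the Polo kinase, held 0.39 and 0.37 FPKM in GMI cells and 0.64 and 0.63 FPKM in control cells. BUB1, a checkpoint kinase at kinetochores, held 0.30 and 0.36 FPKM in GMI cells and 0.58 and 0.46 FPKM in control cells. Both groups of libraries lay apart in each gene, at about 36.8 to 72.2 fragments for PLK1 and 39.6 to 71.9 for BUB1. TTK (MPS1), which starts the checkpoint, had a GMI mean of 65.9% of its control mean, and NEK2, a centrosome kinase, of 58.1%. AURKA, the Aurora kinase of spindle poles, was the most abundant of the group, with 2.97 and 3.01 FPKM in GMI cells and 3.21 and 3.18 FPKM in control cells (log2 fold change -0.07, adjusted p = 0.593, limma). AURKB, the Aurora kinase of the chromosomal passenger complex, held 0.55 and 0.62 FPKM in GMI cells and 0.48 and 0.45 FPKM in control cells, on about 22.1 to 29 fragments. Its log2 fold change of 0.11 was not called.

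Among the genes of the checkpoint and the APC/C, 4 of 6 had both GMI libraries below both controls. BUB1B (BUBR1), which holds CDC20 inactive until chromosomes are attached, had 0.50 and 0.42 FPKM in GMI cells and 0.85 and 0.86 FPKM in control cells, and was not called (limma adjusted p = 0.103 at a mean of 0.25 FPKM). MAD2L1, its partner in the checkpoint, held 1.22 and 1.25 FPKM in GMI cells and 1.5 and 1.73 FPKM in control cells (adjusted p = 0.190, limma). PTTG1, securin, averaged 1.66 ± 0.22 FPKM in GMI cells and 2.04 ± 0.18 FPKM in control cells (SD, n = 2 each, adjusted p = 0.264 in limma), without overlap. Each of these genes kept a larger share of its control level than CDC20, and the difference between the genes was not tested. UBE2C, the ubiquitin-conjugating enzyme of the APC/C, overlapped, with 0.47 and 0.73 FPKM in GMI cells and 0.68 and 1.19 FPKM in control cells. BUB3, which recruits the BUB kinases to kinetochores, stood apart in level, with 42.9 and 46.3 FPKM in GMI cells and 40.9 and 41.7 FPKM in control cells (log2 fold change 0.11, limma adjusted p = 0.292).

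All 5 kinetochore genes had group means of 0.30 FPKM or less, and 3 of them overlapped between the groups. CENPF, the highest, held 0.26 and 0.27 FPKM in GMI cells and 0.32 and 0.28 FPKM in control cells. NUF2 held 0.07 and 0.11 FPKM in GMI cells and 0.22 in each control, while its binding partner NDC80 in the same microtubule-holding complex held 0.06 and 0.12 FPKM in GMI cells and 0.09 and 0.17 FPKM in control cells. These values rest on about 4.72 to 17.8 fragments a library, and neither gene was called with voom. CENPA, the centromeric histone, and CENPE, a kinetochore motor, overlapped as well.

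Of the 8 spindle and motor genes, 6 had both GMI libraries below both controls, TPX2 among them. CKAP5, a microtubule polymerase, held 11.3 and 9.85 FPKM in GMI cells and 12.1 and 12.8 FPKM in control cells (log2 fold change -0.21, limma adjusted p = 0.136). TACC3, which brings CKAP5 to the spindle with clathrin, overlapped, with 3.31 and 4.06 FPKM in GMI cells and 3.87 and 3.55 FPKM in control cells. CKAP2, a spindle protein, overlapped too. KIF11 (Eg5), the kinesin that separates spindle poles, held 0.77 and 0.86 FPKM in GMI cells and 0.99 and 1.03 FPKM in control cells. The other 3 were at lower levels: NUSAP1, which stabilises microtubules near chromosomes, had a GMI mean of 61.5% of its control mean, KIF2C, a microtubule depolymerase, of 37.5%, and HMMR, a spindle-pole protein, held 0.03 and 0.09 FPKM in GMI cells and 0.16 and 0.20 FPKM in control cells. None of these 3 was called, and the HMMR values stand for about 2.58 and 7.40 fragments in GMI cells and 12.9 and 19.0 in control cells.

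Of the 6 genes of the central spindle and cytokinesis, 5 had both GMI libraries below both controls. ANLN, a scaffold of the contractile ring, held 0.26 and 0.33 FPKM in GMI cells and 0.57 and 0.76 FPKM in control cells. It was called with voom (adjusted p = 0.0229) and missed the threshold in limma on log2 FPKM at a mean of 0.25 FPKM (adjusted p = 0.126). PRC1, which bundles antiparallel microtubules, held 0.89 and 1.23 FPKM in GMI cells and 1.44 and 1.41 FPKM in control cells. BIRC5 (survivin), of the passenger complex, held 0.47 and 0.38 FPKM in GMI cells and 0.64 and 0.58 FPKM in control cells. In these genes the groups did not overlap. KIF20A, a kinesin of the central spindle, was at 0.01 and 0.12 FPKM in GMI cells and 0.15 and 0.13 FPKM in control cells, with the GMI libraries far apart at about 0.865 and 9.92 fragments. ECT2, which activates RhoA at the cell equator, was the highest of the group and overlapped, with 4.48 and 5.35 FPKM in GMI cells and 5.01 and 5.26 FPKM in control cells.

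The last group holds TOP2A, MKI67 and the transcription factor FOXM1, and in all 3 both GMI libraries lay below both controls. FOXM1 held 0.51 and 0.58 FPKM in GMI cells and 1.09 and 0.91 FPKM in control cells. It was called with voom (adjusted p = 0.0423) and not in limma on log2 FPKM (adjusted p = 0.0987 at a mean of 0.25 FPKM). MKI67 had the lowest ratio of all members, with a GMI mean 14.3% of the control mean. Its values correspond to about 11.2 and 5.35 fragments in GMI cells and 50.03 and 70.96 in control cells, and it too was called with voom (adjusted p = 0.00239).

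**Figure D4:**
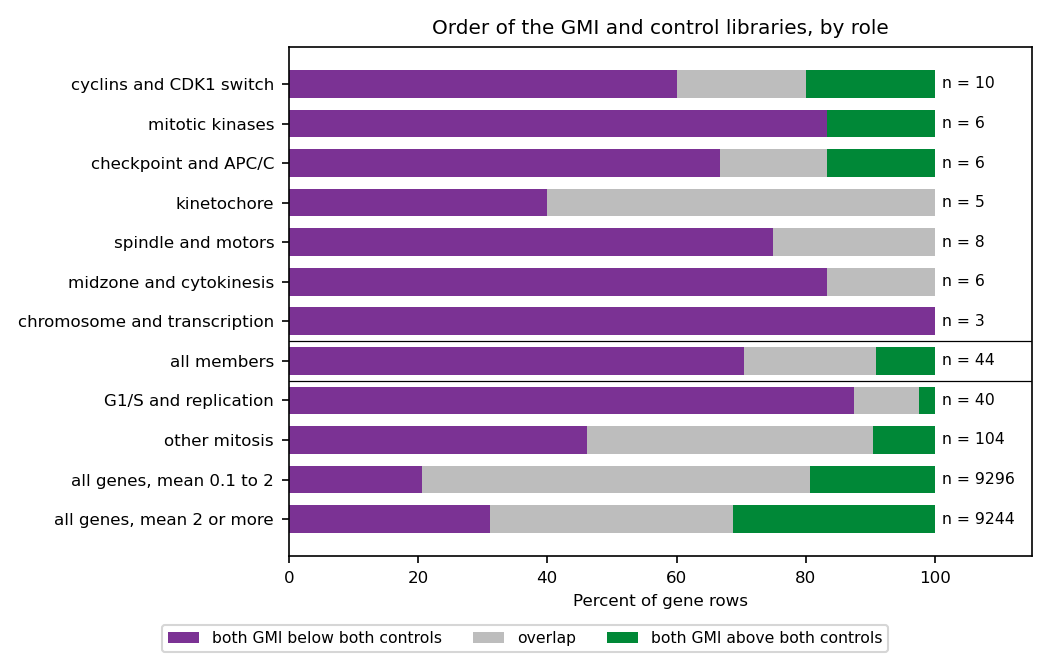
Percent of gene rows in which both GMI libraries lay below both controls, in which the libraries overlapped, and in which both GMI libraries lay above, for the 7 role groups of the members, all 44 member rows, the 2 lists of other genes and all genes in 2 ranges of mean FPKM. The share below is 70.5% for all members, 20.6% for genes between 0.1 and 2 FPKM and 31.2% for genes at 2 FPKM or more, and among the role groups it is lowest for the 5 kinetochore genes.

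Other mitosis genes were followed through another list. Of its 104 rows 48 had both GMI libraries below both controls, 46 overlapped and 10 lay above, where 20.5% of all genes had both below and 20% both above. With the filter on the mean at 0.25 FPKM, 4 of 88 rows fell and 0 rose, beside 3.17% of all genes called lower and 5.03% higher. With at least 1 FPKM in at least 2 libraries, 4 of 65 fell and 1 rose, beside 6.12% called lower and 9.3% higher. These limma calls were near the share over all genes or below it, and nothing particular to the list is read from them. The share of rows with both GMI libraries below both controls, 46.2%, was above that of all genes, and this was not tested. It was the same under 2 FPKM (24 of 52 rows) and at 2 FPKM or more (24 of 52 rows). With voom and no filter, 8 of the 104 rows were called lower and 1 higher, beside 3.23% and 4.23% of all genes. HJURP, the chaperone that loads CENPA, held 1.58 and 1.62 FPKM in GMI cells and 3.09 and 2.84 FPKM in control cells (limma adjusted p = 0.0191 with the filter on the mean). CEP55, which recruits the abscission machinery, held 0.88 and 0.81 FPKM in GMI cells and 1.74 and 2.14 FPKM in control cells (adjusted p = 0.0266 in the same limma test), and reached 1 FPKM in the controls only. ZW10, a kinetochore protein, missed the threshold there (limma adjusted p = 0.0627) and passed it with the filter on single libraries (0.0409). WEE1, the kinase that restrains CDK1, likewise had adjusted p-values of 0.0519 and 0.0346 in these limma tests, with 1.80 and 2.05 FPKM in GMI cells and 1.18 and 1.15 FPKM in control cells.

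The subgroups of this list differed in level. Constitutive parts of the machinery, such as the 17 rows of the APC/C list, had a median ratio of GMI to control of 0.915. Both GMI libraries lay below both controls in 7 of these 17 rows. For the 13 rows of cohesin and its release the median ratio was 0.896, with 5 rows below. For the 8 rows of condensin it was 0.927, with 3 rows below. The 20 rows of other spindle and cytokinesis genes had a median ratio of 0.628, and 15 had a mean under 1 FPKM. In 15 of these 20 rows both GMI libraries lay below both controls. With at least 1 FPKM in at least 2 libraries, 0 of 16, 0 of 9, 0 of 6 and 2 of 6 were called, in this order. Over all genes 6.12% were called lower and 9.3% higher in that test, so calls in so few rows do not separate the subgroups. MYBL2, the gene of B-MYB, was named after its values were seen. It held 0.12 and 0.12 FPKM in GMI cells and 1.20 and 0.94 FPKM in control cells and fell with the filter on the mean at 0.25 FPKM (limma adjusted p = 0.0165). MYBL2 exceeded 0.25 FPKM in the controls only. CDKN1A, the gene of the CDK inhibitor p21 and also named after its values were seen, held 278 and 270 FPKM in GMI cells and 293 and 287 FPKM in control cells.

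Genes of G1/S and DNA replication, which prepare for and carry out S phase, formed a further list. Of the 40 on the list, 35 had both GMI libraries below both controls, where 20.5% of all genes and 31.2% of those at 2 FPKM or more had both below. The median level was 2.15 FPKM in GMI cells and 3.25 FPKM in control cells. With the filter on the mean at 0.25 FPKM, 10 of 39 fell and 0 rose, beside 3.17% of all genes called lower and 5.03% higher, and their median log2 fold change was -0.31. With at least 1 FPKM in at least 2 libraries 13 of 33 fell, beside 6.12% of all genes, and of these RRM2 and ORC6 passed that filter through the controls only. TK1, thymidine kinase, held 0.81 and 1.08 FPKM in GMI cells and 3.64 and 3.37 FPKM in control cells (limma adjusted p = 0.00674 with the filter on the mean). RRM2, a subunit of ribonucleotide reductase, held 0.13 and 0.16 FPKM in GMI cells and 1.21 in each control (adjusted p = 0.0102 in the same limma test). RRM2 passed this filter, too, through the controls only. Under 2 FPKM, 14 of 16 genes of this list had both GMI libraries below both controls. At 2 FPKM or more, 21 of 24 of them did, beside 5 of the 12 member rows at that level. Whether the lists differ was not tested. Without control replicate 1 or control replicate 2, no gene of either list was called with at least 1 FPKM in at least 2 libraries (0 and 0).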

How the data were processed

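The authors deposited, per the file headers, 1 table of FPKM values per library, given to 2 decimals for 57905 Ensembl genes. The build GRCh37 and the tools HISAT2 2.0.1, HTSeq 0.6.1, cutadapt 1.9.1 and bcl2fastq 2.17.1.14 are named, per the submitters' processing notes. The sources used here do not give the annotation release, the gene lengths or the strand setting, so a gene and its antisense or overlapping neighbour may share fragments.

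Values of 2 GMI and 2 control libraries were compared as log2(FPKM + 1) with limma 3.58.1 (R 4.3.3) and a mean-variance trend. Benjamini-Hochberg adjustment ran over every gene fitted, with a threshold of 0.05. The model was fitted to all 26758 genes above 0 FPKM in any library, as the list's rule asks, and to the 11598 genes with at least 1 FPKM in at least 2 libraries. Each gene had 2 residual degrees of freedom, and the prior had 1.73 without the filter and 4.69 with it. Between 2 and 2 libraries an exact permutation test of a single value cannot give a two-sided p below 0.333, so none was run.

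Library denominators were the values that made most FPKM of genes up to 200 nt and below 20 FPKM whole multiples of 1 fragment, within 0.006 FPKM, which 95.8% to 96.8% were, against 2.82% to 3.21% by chance. Approximate fragment numbers used these and GENCODE 29 exon lengths, taken by identifier and without coordinates, which may differ from the authors' lengths. The chi-square per degree of freedom between libraries of a group was 9.59 for GMI and 4.86 for controls, so the libraries of a group were counted separately.

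Per-library values are given for members called, the 8 most abundant, the 4 highest and 4 lowest log2 fold changes at a mean of at least 0.5 FPKM and the most abundant of each role. Values of other members were added for their role. Members, lists and rules were chosen with earlier results of these data known. On simulated data with 200 genes changed by 1 in log2(FPKM + 1), the procedure recovered 97.6% of them over 11598 genes and 62.8% over 26758 genes. The changed genes were drawn only from those above about 1 FPKM. The recovery therefore does not cover the 26 member rows with a mean under 1 FPKM.

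Alternatives were other pseudocounts, scaling, filters, a fit without the trend, voom, a replicate block and leaving out each library.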

Additional observations from a re-analysis of the deposited data

How the results depend on the processing

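Depth limits the members under 1 FPKM unevenly. CDC25C rests on about 1.46 to 9.61 fragments a library, whereas the longer TOP2A rests on about 64.5 to 172. The pseudocount of 1 compresses the fold changes of members at these levels. The median log2 fold change of the 44 rows was -0.17 with that pseudocount, -0.24 with 0.5 and -0.43 with 0.1, and between -0.19 and -0.14 when a library was left out. The number of rows with both GMI libraries below both controls was 31 as deposited, 32 after median ratio scaling and 31 to 38 when a library was left out.

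Without an FPKM filter, 1 gene was called, against 103 with median ratio scaling, 148 with quantile normalization, 0 without the mean-variance trend, 0 with the replicate block, 0 whichever library was left out and 1902 with voom. Member rows called were 0 throughout except 10 with voom.

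With the filter, 1789 genes and 5 member rows were called. Leaving out a library gave 45 to 1369 genes and 0 to 1 member rows: 74 and 45 genes without control replicate 1 and 2, 1369 and 945 without GMI replicate 1 and 2. Such fits assume that a lone library varies like the other group. Both pseudocounts, both scalings, the fit without a trend and the replicate block kept the same 5 members called. Same-numbered libraries deviated from their group means with a correlation of -0.093 over 10631 genes, so the numbers were not taken to pair the libraries.

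The uncalled TACC3 changed sign with quantile normalization (log2 fold change 0.0045) and without GMI replicate 1 or control replicate 1 (0.10 and 0.04, within a range of -0.13 to 0.10 over the libraries left out), and ECT2 without GMI replicate 1 (range -0.16 to 0.05). The causes of these shifts were not tested.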

Other observations

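Copies of members were followed as values of their own rows. Of 15 pseudogene or paralogue rows, UBE2CP2 had the most steady signal, with 0.36 and 0.28 FPKM in GMI cells and 0.29 and 0.08 FPKM in control cells, beside UBE2C itself. AURKAPS1 held 0.11 and 0.04 FPKM in GMI cells and 0 and 0.24 FPKM in control cells, and PTTG2 and PTTG3P were listed at 0 in all 4 libraries. How the counting split fragments between these copies and their parent genes is not given in the sources used here, so UBE2C and AURKA are uncertain to that extent.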
